A study of Homo sapiens with 12 samples.

Results

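The protein kinase C (PKC) family was followed in 8 of its genes, PRKCA, PRKCB, PRKCD, PRKCE, PRKCH, PRKCI, PRKCQ and PRKCZ, picked out by symbol from the 17518 genes of the deposited count table. The genes had been chosen with their levels in these samples in view, for the isoforms each cell line expressed and for their change after knockdown of NUDT21. Their levels and fold changes are therefore given as a description. Results for them from the test run on all genes are also only a description, and are no evidence about the family. RNA sequencing had been done on 12 libraries in 4 groups of 3: MUTZ-1 cells with a short hairpin RNA against NUDT21 (shNUDT21), MUTZ-1 cells with a control hairpin, SKM-1 cells with shNUDT21 and SKM-1 cells with a control hairpin. Both are human marrow cell lines labelled as myelodysplastic syndrome cells. The control cells carry the genotype label WT, and all cells were grown in the same serum-supplemented medium with antibiotics. NUDT21 encodes a subunit of cleavage factor Im, which binds UGUA motifs in nascent transcripts and takes part in the choice of poly(A) sites. The labels do not say how many hairpins or clones were used, nor whether the libraries of a group came from separate cultures, so the p-values rest on a spread between libraries that may be technical.

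PKC enzymes are serine/threonine kinases that carry signals from receptors which activate phospholipase C. Conventional isoforms such as PKC alpha and beta (PRKCA and PRKCB) respond to diacylglycerol and calcium. PKC delta, epsilon, eta and theta (PRKCD, PRKCE, PRKCH and PRKCQ) respond to diacylglycerol without calcium, and the atypical PKC zeta and iota (PRKCZ and PRKCI) respond to neither and work with polarity proteins such as PAR3 and PAR6. In B cells PKC beta links the B-cell receptor to NF-kB through BCL10 and MALT1, and PKC theta has the matching role downstream of the T-cell receptor.

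Total counts per library ran from 15843012 to 18426619. NUDT21 was at 135, 136 and 142 CPM (counts scaled to the library total, after TMM scaling) in MUTZ-1 shNUDT21 libraries, against 301, 297 and 301 CPM in MUTZ-1 control libraries. This left 46.1% of the control level (log2 fold change -1.12 ± 0.03 SE, adjusted p = 1.01e-94 in edgeR's quasi-likelihood test). It was at 131, 132 and 129 CPM in SKM-1 shNUDT21 libraries, against 321, 336 and 343 CPM in SKM-1 control libraries, which left 39.2% (-1.35 ± 0.03, adjusted p = 4.87e-112). The knockdown was thus present in all 6 shNUDT21 libraries. In MUTZ-1 the 9 B-lineage markers examined, among them CD79A and PAX5, were all at 1 CPM or more in both groups, and summed to 1974 to 2025 CPM in shNUDT21 and 2284 to 2293 CPM in control libraries. The B-lineage markers differed in direction in MUTZ-1. MS4A1 averaged 23.2 CPM in shNUDT21 and 187 CPM in control libraries, whereas CD22 averaged 257 and 214 CPM. EBF1 (54.6 and 53.9 CPM) and BLNK (79.0 and 76.1 CPM) were slightly higher in shNUDT21 libraries, and the remaining markers were lower. In SKM-1 the 9 B-lineage markers summed to 3.77 to 4.51 CPM in shNUDT21 and 6.35 to 9.36 CPM in control libraries. Of 10 myeloid markers, 2 reached 1 CPM in MUTZ-1 shNUDT21, 3 in MUTZ-1 control, 5 in SKM-1 shNUDT21 and 4 in SKM-1 control cells, and MPO was at 0 in every library of the first 3 of these groups. Most of the myeloid markers were thus under 1 CPM in both MUTZ-1 groups and also in SKM-1 control cells.

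PRKCB made up most of the family's summed level in SKM-1 cells after knockdown and a smaller part in the other 3 groups. In FPKM (fragments scaled to gene length and library depth), which allow levels to be set between genes, the 8 genes summed to 79.4 ± 0.79 in MUTZ-1 shNUDT21, 70.7 ± 0.70 in MUTZ-1 control, 129 ± 1.16 in SKM-1 shNUDT21 and 71.2 ± 1.41 in SKM-1 control libraries (SD, n = 3 each). The sum in SKM-1 was thus 1.81 times as high in shNUDT21 as in control cells. PRKCB alone was 62.8 FPKM higher, while the sum of 8 genes was 57.4 FPKM higher, so the other 7 genes together were lower, at 45.4 ± 0.68 FPKM in shNUDT21 and 50.9 ± 1.37 FPKM in control SKM-1 libraries. In MUTZ-1 the sum was 8.69 FPKM higher in shNUDT21 cells and PRKCB was 0.50 FPKM lower.

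PRKCB held 30.7 ± 0.35% of the summed FPKM in MUTZ-1 shNUDT21, 35.2 ± 0.61% in MUTZ-1 control, 64.7 ± 0.26% in SKM-1 shNUDT21 and 28.6 ± 0.67% in SKM-1 control libraries. PRKCI, the gene of the atypical PKC iota, held 34.9 ± 0.29%, 29.4 ± 0.18%, 13.4 ± 0.13% and 39.3 ± 0.17% in the same order of groups. PRKCB and PRKCI were therefore the 2 highest genes per length in all 4 groups, but their order changed. PRKCI was above PRKCB in MUTZ-1 shNUDT21 and SKM-1 control cells, and PRKCB was above PRKCI in MUTZ-1 control and SKM-1 shNUDT21 cells. By class, the conventional genes PRKCA and PRKCB together made up 40.1% of the sum in MUTZ-1 shNUDT21, 44.1% in MUTZ-1 control, 69.9% in SKM-1 shNUDT21 and 40.5% in SKM-1 control libraries. The atypical pair PRKCI and PRKCZ made up 37.6%, 31.9%, 14.0% and 42.8%, and the 4 calcium-independent genes PRKCD, PRKCE, PRKCH and PRKCQ 22.3%, 24.0%, 16.1% and 16.7%. These groups' ranges overlapped between shNUDT21 and control cells of SKM-1 for the calcium-independent class and for neither of the other classes. The gene lengths implied by counts and FPKM ran from 3127 bases for PRKCD to 25765 bases for PRKCE, and a long length lowers the FPKM of a gene. Whether these lengths match the transcripts expressed was not tested. The implied lengths of PRKCB and PRKCI were 8010 and 4887 bases, and their change of order was seen only per length. In CPM, PRKCB was above PRKCI in all 4 groups. Their means were 197 and 137 CPM in MUTZ-1 shNUDT21 and 208 and 106 CPM in MUTZ-1 control libraries. In SKM-1 they were 669 and 84.5 CPM in shNUDT21 and 155 and 130 CPM in control libraries.

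**Figure D1:**
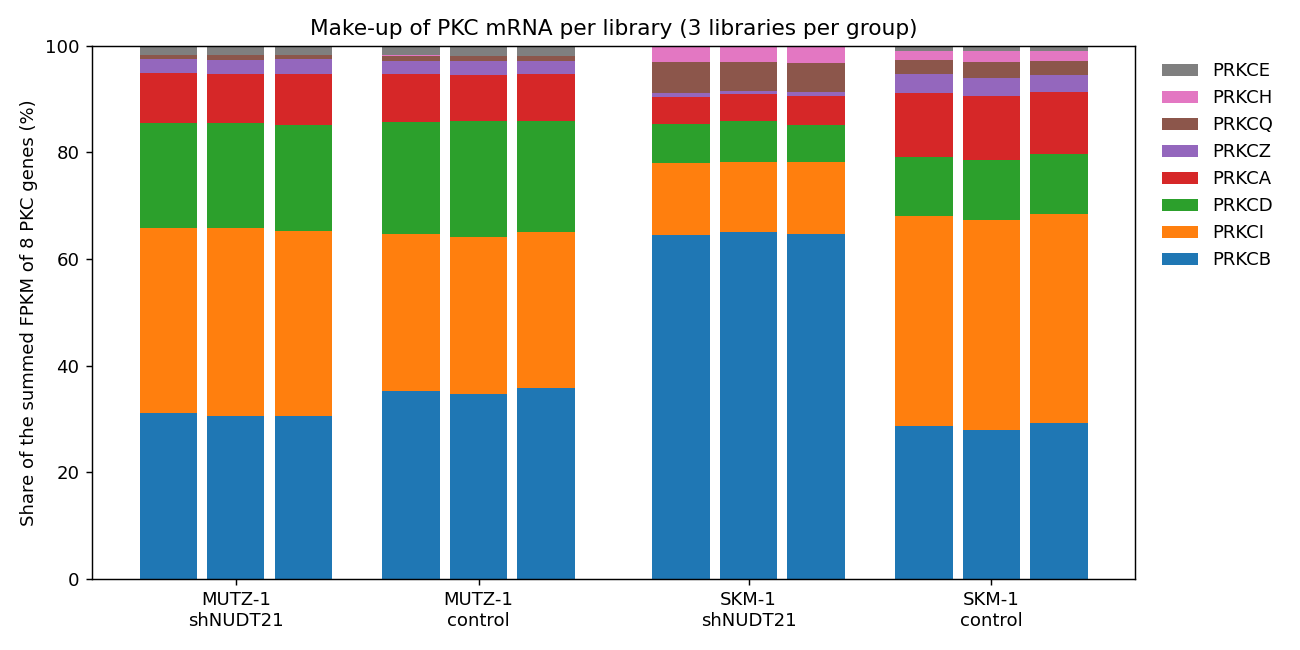
Share (%, vertical axis) of each of the 8 PKC genes in their summed FPKM, 1 bar per library, 3 bars per group. PRKCB takes 64.5% to 65.0% in the SKM-1 shNUDT21 bars and 27.9% to 29.2% in the SKM-1 control bars.

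The sequences upstream of the 4 genes with the largest fold changes in SKM-1, PRKCB, PRKCQ and PRKCH on the higher side and PRKCE on the lower, are printed because the start of each gene is where members that moved together or apart could share letters. Each is the 250 bases before the gene's start from RefSeq (GRCh38.p14), 5′ to 3′ on the gene's strand, with every match to a searched motif in capitals.
PRKCB, chr16:23835733-23835982, plus strand: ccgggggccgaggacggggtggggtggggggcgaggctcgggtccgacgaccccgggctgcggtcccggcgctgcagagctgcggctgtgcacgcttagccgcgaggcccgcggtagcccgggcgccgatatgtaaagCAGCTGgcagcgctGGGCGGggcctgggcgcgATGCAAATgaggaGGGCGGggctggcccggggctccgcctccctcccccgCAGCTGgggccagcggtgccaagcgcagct
PRKCQ, chr10:6580647-6580896, minus strand: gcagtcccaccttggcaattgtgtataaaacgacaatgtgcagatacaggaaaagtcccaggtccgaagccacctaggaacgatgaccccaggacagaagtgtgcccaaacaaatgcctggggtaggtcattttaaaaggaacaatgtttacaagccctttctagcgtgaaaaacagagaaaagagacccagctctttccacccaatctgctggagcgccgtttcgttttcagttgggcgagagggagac
PRKCH, chr14:61321329-61321578, plus strand: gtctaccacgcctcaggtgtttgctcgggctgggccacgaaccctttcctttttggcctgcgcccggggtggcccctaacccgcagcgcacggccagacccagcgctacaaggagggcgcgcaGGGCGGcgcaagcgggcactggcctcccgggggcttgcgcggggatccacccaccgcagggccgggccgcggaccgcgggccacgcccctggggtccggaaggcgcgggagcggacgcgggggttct
PRKCE, chr2:45651425-45651674, plus strand: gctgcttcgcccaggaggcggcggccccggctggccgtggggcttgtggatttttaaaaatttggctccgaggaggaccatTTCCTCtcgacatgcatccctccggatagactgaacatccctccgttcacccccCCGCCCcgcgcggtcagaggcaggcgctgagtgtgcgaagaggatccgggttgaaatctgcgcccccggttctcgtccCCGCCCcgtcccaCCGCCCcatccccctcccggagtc

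The motifs searched, on both strands, were the octamer ATGCAAAT, the E-box form written CAGCTG and the GC box written GGGCGG. Core letters of 3 families of blood cell factors were added, AGATAA for the GATA factors, TGTGGT for the RUNX factors and GAGGAA for the ETS factors. The PRKCB window held 1 octamer, starting 80 bases before the gene's start, 2 matches to CAGCTG and 2 to GGGCGG. The octamer was in 1.63% of 35116 promoters of the same length and in 1 of the 13 windows listed for the 8 genes, CAGCTG in 14.0% and GGGCGG in 42.6% of promoters. Octamers are a known feature of immunoglobulin promoters, where they bind POU-domain factors. The PRKCH window held 1 GC box, the PRKCE window 3 GC boxes and 1 match to GAGGAA (found in 23.6% of promoters), and the PRKCQ window none of the motifs. AGATAA (9.17% of promoters) and TGTGGT (11.0%) were in none of these 4 windows. The 3 genes that were higher thus shared no searched motif in these windows. The RefSeq starts differ from the GENCODE starts given for the genes, and the PRKCH and PRKCE windows lie within the GENCODE genes, that of PRKCH far downstream of the first start. A match is a string of letters and not a binding site.

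The conventional gene PRKCB (chromosome 16, 23835946 to 24220611, plus strand, GRCh38, GENCODE v29) had 202, 194 and 196 CPM in MUTZ-1 shNUDT21 libraries, against 205, 205 and 214 CPM in MUTZ-1 control libraries (log2 fold change -0.08 ± 0.03). It had 667, 667 and 672 CPM in SKM-1 shNUDT21 libraries, against 152, 154 and 158 CPM in SKM-1 control libraries (2.11 ± 0.03, or 4.32-fold). The 3 SKM-1 shNUDT21 libraries stood above the other 9, and the order of the groups ran SKM-1 shNUDT21, MUTZ-1 control, MUTZ-1 shNUDT21 and SKM-1 control, with no overlap between neighbours in that order. MUTZ-1 control cells had 1.34 times the level of SKM-1 control cells (0.43 ± 0.03), whereas MUTZ-1 shNUDT21 cells had 29.5% of the level of SKM-1 shNUDT21 cells (-1.76 ± 0.02). The effect of the knockdown in MUTZ-1 minus that in SKM-1 was -2.19 ± 0.04. The small difference in MUTZ-1 lost its call in 11 of 21 alternatives. Among these were the fits without MUTZ-1 control replicate 1, 2 or 3, MUTZ-1 shNUDT21 replicate 1 or 2, or SKM-1 shNUDT21 replicate 2, with values between -0.07 and -0.03.

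The other conventional gene among the 8, PRKCA (chromosome 17, 66302636 to 66810743, plus strand), encodes the widely expressed PKC alpha. It had 95.0, 89.1 and 95.6 CPM in MUTZ-1 shNUDT21 libraries, against 82.5, 78.8 and 81.9 CPM in MUTZ-1 control libraries (0.20 ± 0.04). It had 81.3, 79.4 and 87.5 CPM in SKM-1 shNUDT21 libraries, against 98.1, 102.6 and 98.1 CPM in SKM-1 control libraries (-0.27 ± 0.04). The direction was opposite in the lines, and neither pair of groups overlapped. The levels of SKM-1 shNUDT21 and MUTZ-1 control libraries did overlap.

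Among the calcium-independent genes, PRKCE was far lower and PRKCQ and PRKCH were higher in SKM-1 after knockdown, while the MUTZ-1 groups of all 4 genes overlapped. PRKCE (chromosome 2, 45651345 to 46187990, plus strand), which encodes PKC epsilon, had 34.5, 33.9 and 34.0 CPM in MUTZ-1 shNUDT21 libraries, against 32.9, 36.0 and 35.5 CPM in MUTZ-1 control libraries (-0.03 ± 0.07). It had 1.25, 1.61 and 1.18 CPM in SKM-1 shNUDT21 libraries, from 20, 27 and 19 counts, against 14.9, 16.0 and 16.7 CPM in SKM-1 control libraries, from 266, 295 and 290 counts (-3.55 ± 0.14). This left 8.56% of the control level, the largest change among the 8 genes in size. MUTZ-1 control cells had 2.19 times the level of SKM-1 control cells (1.13 ± 0.08).

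PRKCQ (chromosome 10, 6427143 to 6580301, minus strand), the gene of PKC theta, had 2.64, 3.82 and 3.33 CPM in MUTZ-1 shNUDT21 libraries, against 3.74, 3.28 and 3.45 CPM in MUTZ-1 control libraries (-0.10 ± 0.17). It had 38.8, 36.2 and 36.7 CPM in SKM-1 shNUDT21 libraries, against 8.54, 11.1 and 8.90 CPM in SKM-1 control libraries (1.97 ± 0.09, or 3.91-fold). All SKM-1 libraries were above all MUTZ-1 libraries. PRKCH (chromosome 14, 61187559 to 61550976, plus strand), the gene of PKC eta, was close to its detection limit in MUTZ-1, with 8, 11 and 8 counts in shNUDT21 libraries and 6, 4 and 9 counts in control libraries. It passed the filter on low counts only through SKM-1. It had 33.8, 32.3 and 34.9 CPM in SKM-1 shNUDT21 libraries, against 10.3, 12.4 and 10.9 CPM in SKM-1 control libraries (1.59 ± 0.10, or 3.01-fold). In control cells its level in MUTZ-1 was 3.32% of that in SKM-1 (-4.91 ± 0.21), the widest difference between the lines in the family.

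PRKCD (chromosome 3, 53156009 to 53192717, plus strand) encodes PKC delta, which is known for roles in apoptosis and B-cell tolerance. It had 49.7, 48.9 and 49.6 CPM in MUTZ-1 shNUDT21 libraries, against 47.7, 50.5 and 48.2 CPM in MUTZ-1 control libraries (0.02 ± 0.06). It had 30.1, 30.9 and 28.8 CPM in SKM-1 shNUDT21 libraries, against 22.9, 24.4 and 23.7 CPM in SKM-1 control libraries (0.34 ± 0.07, or 1.27-fold). MUTZ-1 control cells had 2.06 times the level of SKM-1 control cells (1.05 ± 0.06), and the groups of SKM-1 did not overlap.

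Both atypical genes were lower in SKM-1 after knockdown and slightly higher in MUTZ-1. PRKCI (chromosome 3, 170222365 to 170305981, plus strand) had 137, 136 and 136 CPM in MUTZ-1 shNUDT21 libraries, against 105, 106 and 106 CPM in MUTZ-1 control libraries (0.37 ± 0.03). It had 85.3, 83.0 and 85.4 CPM in SKM-1 shNUDT21 libraries, against 128, 133 and 129 CPM in SKM-1 control libraries (-0.62 ± 0.04), which left 65.1%. No 2 groups overlapped among neighbours in the order MUTZ-1 shNUDT21, SKM-1 control, MUTZ-1 control and SKM-1 shNUDT21. PRKCZ (chromosome 1, 2050470 to 2185395, plus strand) had 14.9, 14.6 and 15.2 CPM in MUTZ-1 shNUDT21 libraries, against 12.3, 13.6 and 12.6 CPM in MUTZ-1 control libraries (0.22 ± 0.10). It had 5.70, 5.26 and 6.08 CPM in SKM-1 shNUDT21 libraries, against 17.4, 16.1 and 15.3 CPM in SKM-1 control libraries (-1.52 ± 0.11), which left 34.9%. The groups of PRKCZ did not overlap in either line, and in MUTZ-1 its difference was not called but passed in 8 of 21 alternatives. PRKCZ overlaps FAAP20, a Fanconi anaemia gene on the opposite strand, and no source used here gives the strand setting of the counting. FAAP20 rose to 49.8 ± 1.58 CPM in SKM-1 shNUDT21 libraries, against 32.7 ± 1.97 CPM in SKM-1 control libraries (0.61 ± 0.06, adjusted p = 8.82e-20 in edgeR's test), the direction opposite to that of PRKCZ there. In MUTZ-1 FAAP20 also rose, to 33.9 ± 1.58 CPM in shNUDT21 libraries, against 28.6 ± 0.81 CPM in control libraries (0.24 ± 0.06, adjusted p = 0.000693), the direction of PRKCZ in MUTZ-1 (0.22). Its part in the values of PRKCZ was not tested. PRKCA, PRKCE and PRKCH overlap 1, 4 and 3 annotated genes on the opposite strand, which were not analysed here.

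**Figure D2:**
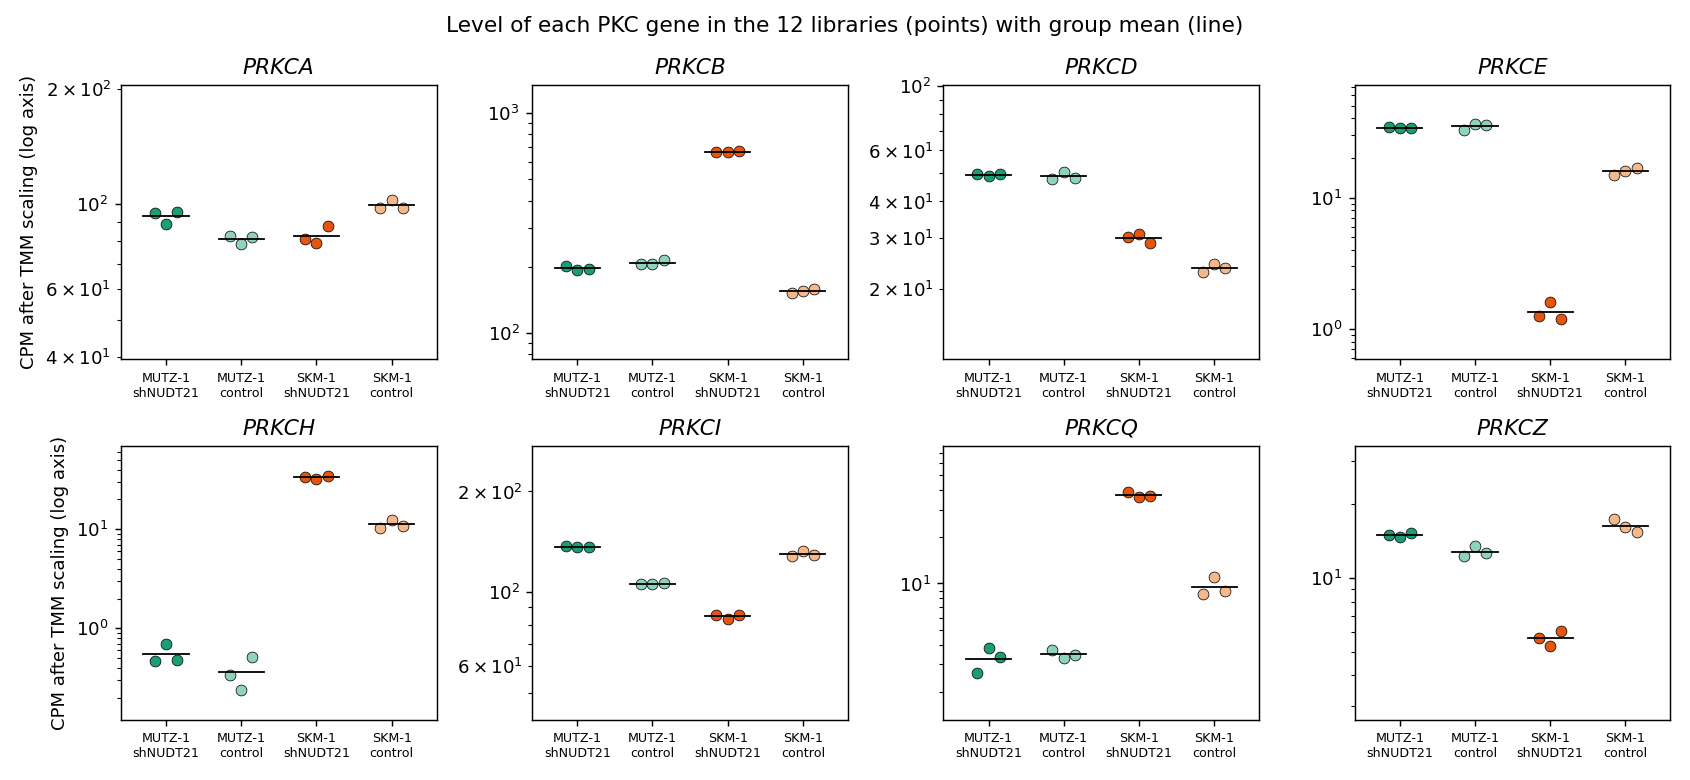
Level of each PKC gene in CPM after TMM scaling (vertical log axis, its range set per panel), with 1 point per library and a line at the group mean. In SKM-1 the shNUDT21 points lie apart from the control points in all 8 panels, whereas in MUTZ-1 the points of PRKCD, PRKCE, PRKCH and PRKCQ overlap.

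Counted over the family, 3 of 8 genes were called in MUTZ-1 at an adjusted p under 0.05, PRKCA and PRKCI higher and PRKCB lower, where 49% of the 13625 genes tested were called. That 49% came from 3326 genes higher and 3354 lower, or 4056 and 2626 when scaled by library totals alone. None of them reached 2-fold, where 4.75% of all genes tested did, and the groups of 4 genes did not overlap, where 53.6% of all genes tested had no overlap. In SKM-1 all 8 genes were called, 4 higher (PRKCB, PRKCD, PRKCH and PRKCQ) and 4 lower (PRKCA, PRKCE, PRKCI and PRKCZ), where 84.4% of all genes tested were called, 42.1% higher and 42.3% lower. Of the 8, 5 reached 2-fold, where 35.1% of all genes tested did, and the groups of all 8 did not overlap, where the share over all genes tested was 84.6%. The median absolute log2 fold change over the 8 genes was 0.15 in MUTZ-1 and 1.55 in SKM-1, beside 0.20 and 0.69 over all genes tested. The difference of the knockdown effects was called for all 8 genes, where 72% of all genes tested were called. It was positive for PRKCA, PRKCE, PRKCI and PRKCZ (36.4% of all genes tested were called in that direction) and negative for the other 4 (35.6%). For PRKCH this call was lost in 6 of 20 alternatives. These were library totals alone (-0.89) and the fits without MUTZ-1 control replicate 1 (-1.02) or 3 (-0.70), MUTZ-1 shNUDT21 replicate 1 or 3, or SKM-1 control replicate 1, with values between -1.02 and -0.70, beside -1.02 with all libraries. All 8 genes were also called between MUTZ-1 control and SKM-1 control cells (90.2% of all genes tested), 3 higher (41.4%) and 5 lower (48.8%) in MUTZ-1 and without overlap (90%), and between MUTZ-1 shNUDT21 and SKM-1 shNUDT21 cells (88%), 5 higher (41.4%) and 3 lower (46.6%) in MUTZ-1. Between the shNUDT21 cells 5 genes reached 2-fold (45.2% of all genes tested). These comparisons share libraries with the knockdown comparisons. Since the genes had been chosen on these contrasts, nothing is read from the counts.

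The 3′ UTRs of the family differed widely in length and in the number of UGUA motifs, the letters that cleavage factor Im is known to bind. The longest annotated 3′ UTR had 6709 bases with 27 motifs in PRKCA, 5798 bases with 19 in PRKCB and 3112 bases with 23 in PRKCE, against 454 bases with 3 in PRKCD and 389 bases with 2 in PRKCZ. The median over 12977 tested genes was 1399 bases. Per kilobase, PRKCB had 3.28 motifs and PRKCE 7.39, on either side of the median of 4.96, and the remaining 6 genes lay between 4.02 and 6.61. PRKCB and PRKCE were thus the lowest and the highest of the family in motif density. Which of a gene's poly(A) sites was in use cannot be read from gene counts, and use of the motifs was not tested.

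The genes near each member were examined for shifts of a whole region. Within 5 Mb of PRKCB, the median log2 fold change of 71 tested genes in SKM-1 was -0.10. Of these, 10 changed at least as much in size as PRKCB (2.11), counting rises and falls together. Around PRKCE, the median of 35 genes was -0.43, and 4 genes changed at least as much in size as PRKCE, in either direction. Around PRKCH the median of 46 genes was -0.37. PRKCH and PRKCB were thus higher in regions whose median was below 0. The region of PRKCQ was itself higher in SKM-1 after knockdown, with a median of 0.65 over 24 genes and quartiles of 0.38 and 1.69. Of these genes, 5 changed at least as much in size as PRKCQ, in either direction. The region of PRKCZ had a median of 0.56 over 78 genes, while PRKCZ itself was at -1.52. The part of a regional shift in the values of PRKCQ was not tested. In MUTZ-1 the medians around the 8 genes lay between -0.03 and 0.16.

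**Figure D3:**
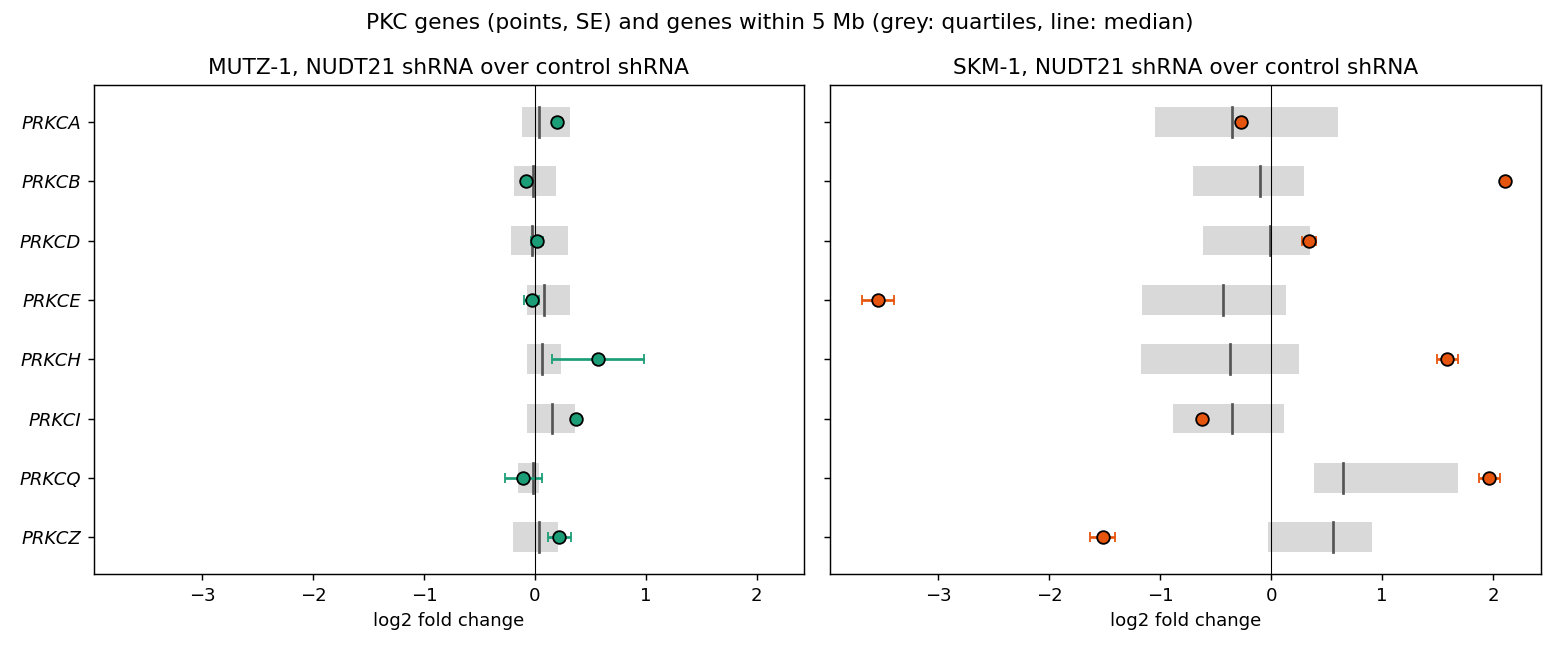
Log2 fold change of each PKC gene (point, with its SE) in MUTZ-1 on the left and SKM-1 on the right, over the quartiles (grey bar) and median (dark line) of tested genes within 5 Mb. In SKM-1 the points of PRKCB (2.11), PRKCE (-3.55), PRKCH (1.59), PRKCQ (1.97) and PRKCZ (-1.52) lie outside their grey bars.

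The genes whose levels followed each member most closely were found as the smallest root mean square (RMS) difference of log2(CPM + 0.5), centred per gene, over the 12 libraries and 10885 genes. ANXA2, a calcium-dependent membrane-binding protein, was nearest to PRKCB (RMS 0.07), with mean levels of 116, 113, 375 and 82.0 CPM in MUTZ-1 shNUDT21, MUTZ-1 control, SKM-1 shNUDT21 and SKM-1 control libraries. KYNU (0.13), RDH10 (0.14), LRRC61 (0.14) and SERPINF1 (0.16) came next. Their levels were lower, between 7.98 and 59.0 CPM, and each was highest in SKM-1 shNUDT21 cells as PRKCB was. The nearest gene was EIF4H for PRKCD (0.05), MBTD1 for PRKCI (0.05) and FNDC3A for PRKCZ (0.08). It was DENND3 for PRKCE (0.13), STXBP5 for PRKCQ (0.16) and RAB32 for PRKCH (0.16). DENND3 had 0.55 CPM in SKM-1 shNUDT21 and 8.77 CPM in SKM-1 control libraries, and STXBP5 305 and 80.8 CPM. The 12 libraries share lines and treatments, so likeness over them is a description of 4 group levels.

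Lineage markers moved in SKM-1 along with the family. The 6 erythroid markers, among them GATA1, KLF1 and ALAS2, summed to 870 to 907 CPM in SKM-1 shNUDT21 libraries, against 235 to 241 CPM in SKM-1 control libraries, and all 6 were at 1 CPM or more in both groups. In MUTZ-1 they summed to 9.02 to 10.3 CPM in shNUDT21 and 6.28 to 6.57 CPM in control libraries. The 10 myeloid markers summed to 78.6 to 87.4 CPM in SKM-1 shNUDT21 and 24.6 to 26.8 CPM in SKM-1 control libraries. CD33 averaged 39.7 CPM in SKM-1 shNUDT21 and 8.54 CPM in SKM-1 control libraries, and SPI1 26.2 and 9.36 CPM. CEBPA went the other way (0.33 and 0.74 CPM), and MPO, CSF1R, CSF3R and ELANE were under 1 CPM in both groups. In MUTZ-1 the 10 summed to 71.8 to 80.7 CPM in shNUDT21 and 83.4 to 94.2 CPM in control libraries. Most of this was SPI1, with means of 69.7 and 79.9 CPM. The 4 fibroblast markers summed to 12.5 to 15.8 CPM in SKM-1 shNUDT21 and 56.1 to 61.9 CPM in SKM-1 control libraries. Their members differed in direction: COL3A1 averaged 1.75 CPM in SKM-1 shNUDT21 and 46.2 CPM in SKM-1 control libraries, whereas COL1A2 averaged 10.3 CPM in SKM-1 shNUDT21 and 2.65 CPM in SKM-1 control libraries. Of 7 T-lineage markers, LCK alone reached 1 CPM in MUTZ-1. The 7 summed to 3.95 to 5.14 CPM in SKM-1 shNUDT21 and 5.28 to 6.40 CPM in SKM-1 control libraries. These markers also differed in direction. CD3D averaged 2.94 CPM in SKM-1 shNUDT21 and 0.50 CPM in SKM-1 control libraries, whereas ZAP70 averaged 0.78 and 3.07 CPM and CD7 0.35 and 2.02 CPM. CD3E, CD3G, CD2 and LCK were under 1 CPM in both SKM-1 groups. The megakaryocyte marker ITGA2B, 1 of 3 listed, had 5.09 to 7.14 CPM in SKM-1 shNUDT21 and 15.8 to 16.4 CPM in SKM-1 control libraries. In these bulk libraries, fewer cells of a type and less RNA per cell cannot be told apart, and the part of such markers in the values of the PKC genes was not tested.

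Diacylglycerol is the lipid that recruits conventional and calcium-independent PKC to membranes. Of 77 tested genes in 8 pathway lists, 26 rose and 14 fell in MUTZ-1, or 51.9%, where 49% of all genes tested were called, and 34 rose and 32 fell in SKM-1, or 85.7%, where 84.4% were. The lists as a whole thus changed about as often as all genes. Of 11 genes for diacylglycerol production, 4 rose and none fell in MUTZ-1 (36.4%, where 49% of all genes tested were called). In SKM-1 4 rose and 6 fell (90.9%, where 84.4% of all genes tested were called). PLCB2, a phospholipase C of blood cells, rose in both lines. It had 31.8 ± 1.21 CPM in MUTZ-1 shNUDT21 and 12.6 ± 1.87 CPM in MUTZ-1 control libraries (1.34 ± 0.09, adjusted p = 2.23e-34), and 19.5 ± 1.80 CPM in SKM-1 shNUDT21 and 3.64 ± 0.29 CPM in SKM-1 control libraries (2.42 ± 0.12, adjusted p = 1.63e-52). PLCD1, of the delta class, also rose in both lines (0.53 ± 0.12 in MUTZ-1 and 0.63 ± 0.05 in SKM-1). PLCB1 fell to 3.30 ± 0.30 CPM in SKM-1 shNUDT21 libraries, against 51.3 ± 1.23 CPM in SKM-1 control libraries (-3.96 ± 0.11, adjusted p = 2.89e-78), and PLCB4 to 6.22 ± 0.70 CPM against 77.8 ± 0.47 CPM (-3.64 ± 0.08, adjusted p = 2.68e-104). Both were below 0.3 CPM in MUTZ-1. PLCG2, which acts under the B-cell receptor, was at 391 and 397 CPM in MUTZ-1 shNUDT21 and control libraries and at 7.56 and 4.96 CPM in those of SKM-1.

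Of 7 tested genes of diacylglycerol kinases, which turn diacylglycerol into phosphatidic acid, only DGKA rose in MUTZ-1 (0.20), or 14.3%, where 49% of all genes tested were called. In SKM-1 4 rose and 2 fell, or 85.7%, where 84.4% of all genes tested were called. DGKA rose to 19.3 ± 0.73 CPM in SKM-1 shNUDT21 libraries, against 5.74 ± 0.19 CPM in SKM-1 control libraries (1.75 ± 0.10, adjusted p = 9.07e-43), and DGKZ to 131 ± 2.39 CPM against 67.4 ± 0.40 CPM (0.96 ± 0.04, adjusted p = 3.01e-65). DGKH fell to 19.5 ± 1.04 CPM, against 68.2 ± 2.28 CPM (-1.81 ± 0.06, adjusted p = 1.29e-80), and DGKD fell by 1.07 on the log2 scale. The kinase genes thus moved in both directions in SKM-1.

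Of 11 tested genes for other proteins that bind diacylglycerol, 5 rose and 1 fell in MUTZ-1 (54.5%, where 49% of all genes tested were called). In SKM-1 5 rose and 5 fell (90.9%, where 84.4% of all genes tested were called). RASGRP1, which activates Ras, rose to 30.1 ± 1.02 CPM in MUTZ-1 shNUDT21 libraries, against 14.1 ± 1.62 CPM in MUTZ-1 control libraries (1.09 ± 0.08, adjusted p = 1.01e-28), and also rose in SKM-1 (0.30 ± 0.08, adjusted p = 0.000301). CHN1, a Rac GTPase-activating protein, rose to 28.7 ± 1.42 CPM against 14.0 ± 0.39 CPM in MUTZ-1 (1.03 ± 0.08, adjusted p = 6.71e-25), and fell to 1.70 ± 0.30 CPM in SKM-1 shNUDT21 against 24.4 ± 1.18 CPM in SKM-1 control libraries (-3.84 ± 0.13, adjusted p = 7.00e-76). The difference between these effects was 4.87 (adjusted p = 1.09e-78). RASGRP2, which activates Rap, went the other way, lower in MUTZ-1 shNUDT21 than in control libraries (-0.39 ± 0.05) and higher in SKM-1 (1.50 ± 0.12). PRKD3, a kinase that PKC phosphorylates, fell to 76.0 ± 2.38 CPM in SKM-1 shNUDT21 libraries, against 250 ± 1.11 CPM in SKM-1 control libraries (-1.72 ± 0.03, adjusted p = 1.28e-118), and RASGRP4 rose there by 1.37.

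Among genes for the maturation and turnover of PKC protein, HSP90AA1, HSP90AB1, MTOR and PHLPP2 were called in opposite directions in the lines. Newly made PKC is folded with HSP90 and CDC37, phosphorylated with the help of PDK1 and mTORC2, and dephosphorylated by PHLPP phosphatases. Of 12 such genes, 3 rose and 4 fell in MUTZ-1 (58.3%, where 49% of all genes tested were called). In SKM-1 7 rose and 3 fell (83.3%, where 84.4% of all genes tested were called). HSP90AB1 fell to 2441 ± 28.1 CPM in MUTZ-1 shNUDT21 libraries, against 3009 ± 33.5 CPM in MUTZ-1 control libraries (-0.30 ± 0.02, adjusted p = 1.27e-42), and rose to 5271 ± 20.1 CPM in SKM-1 shNUDT21 libraries, against 3011 ± 19.2 CPM in SKM-1 control libraries (0.81 ± 0.02, adjusted p = 5.43e-114). HSP90AA1 had the same directions (-0.32 ± 0.02 in MUTZ-1 and 0.66 in SKM-1), and MTOR fell by 0.07 in MUTZ-1 and rose by 0.98 in SKM-1. PHLPP2 rose in MUTZ-1 (0.28 ± 0.06) and fell in SKM-1 (-0.46 ± 0.07), PHLPP1 fell in SKM-1 (-0.54 ± 0.07), and TRIM41, a ubiquitin ligase for PKC, rose in MUTZ-1 (0.14 ± 0.04) and in SKM-1 (0.66).

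Of 13 tested scaffolds and polarity partners, 5 rose and 1 fell in MUTZ-1 (46.2%, where 49% of all genes tested were called). In SKM-1 4 rose and 7 fell (84.6%, where 84.4% of all genes tested were called). PARD3, the gene of PAR3, which docks atypical PKC, fell to 20.3 ± 1.98 CPM in SKM-1 shNUDT21 libraries, against 106.7 ± 4.87 CPM in SKM-1 control libraries (-2.39 ± 0.06, adjusted p = 3.50e-92). WWC1, the gene of KIBRA, fell to 1.11 ± 0.21 CPM against 22.9 ± 1.57 CPM (-4.36 ± 0.17, adjusted p = 1.31e-63). In MUTZ-1 PARD3 was below 1 CPM and WWC1 at or near 0. SQSTM1, the gene of p62, which binds atypical PKC, rose to 196 ± 5.23 CPM in SKM-1 shNUDT21 against 86.8 ± 2.20 CPM in SKM-1 control libraries (1.17 ± 0.04, adjusted p = 4.37e-79), and CAVIN2 rose by 1.47 there. LLGL2, a polarity substrate, rose by 0.44 in MUTZ-1 and by 0.45 in SKM-1, and PICK1, which binds PKC alpha, rose by 0.38 in MUTZ-1 and fell by 1.13 in SKM-1.

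Of 14 PKC substrates, 4 rose and 6 fell in MUTZ-1 (71.4%, where 49% of all genes tested were called). In SKM-1 6 rose and 7 fell (92.9%, where 84.4% of all genes tested were called). MARCKS, the classic membrane-bound substrate, fell in both lines. It had 0.293, 0.0636 and 0.179 CPM in MUTZ-1 shNUDT21 libraries, against 6.79, 7.70 and 6.16 CPM in MUTZ-1 control libraries (-5.19 ± 0.27, adjusted p = 6.08e-45). It had 6.45, 6.70 and 5.40 CPM in SKM-1 shNUDT21 libraries, against 28.5, 30.1 and 30.1 CPM in SKM-1 control libraries (-2.25 ± 0.11, adjusted p = 1.03e-51). The adducin ADD2, a red-cell membrane skeleton gene, rose to 250 ± 3.38 CPM in SKM-1 shNUDT21 against 86.1 ± 2.86 CPM in SKM-1 control libraries (1.54 ± 0.04, adjusted p = 1.42e-103), and ADD3 rose in MUTZ-1 (0.22 ± 0.03). PPP1R14A, an inhibitor of myosin phosphatase, rose by 1.63 in SKM-1, and PEBP1, the Raf inhibitor, fell by 0.27 in MUTZ-1. NCF1, of the phagocyte oxidase, was at 122 ± 3.86 CPM in MUTZ-1 control and 0.112 ± 0.058 CPM in SKM-1 control libraries, with the limit that near-identical copies of NCF1 can split its reads.

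The CARD, BCL10 and MALT1 genes through which PKC beta and theta reach NF-kB changed unevenly in SKM-1. CARD9, a scaffold of myeloid cells, rose to 27.7 ± 0.45 CPM in SKM-1 shNUDT21 libraries, against 8.15 ± 0.42 CPM in SKM-1 control libraries (1.76 ± 0.11, adjusted p = 7.91e-36). MALT1, the protease of the complex, fell to 6.12 ± 0.40 CPM in SKM-1 shNUDT21 against 30.9 ± 0.92 CPM in SKM-1 control libraries (-2.33 ± 0.08, adjusted p = 3.03e-72) and by 0.12 in MUTZ-1. The call in MUTZ-1 was lost in 5 of 21 alternatives, among them the fits without MUTZ-1 control replicate 1 or MUTZ-1 shNUDT21 replicate 2 (-0.07 each). BCL10 was at 12.3 CPM in both SKM-1 groups. Of the PKC-related kinases, PKN3 rose in both lines (0.53 ± 0.10 and 0.45 ± 0.05), and PKN2 rose by 0.14 in MUTZ-1 and fell by 0.56 in SKM-1.

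**Figure D4:**
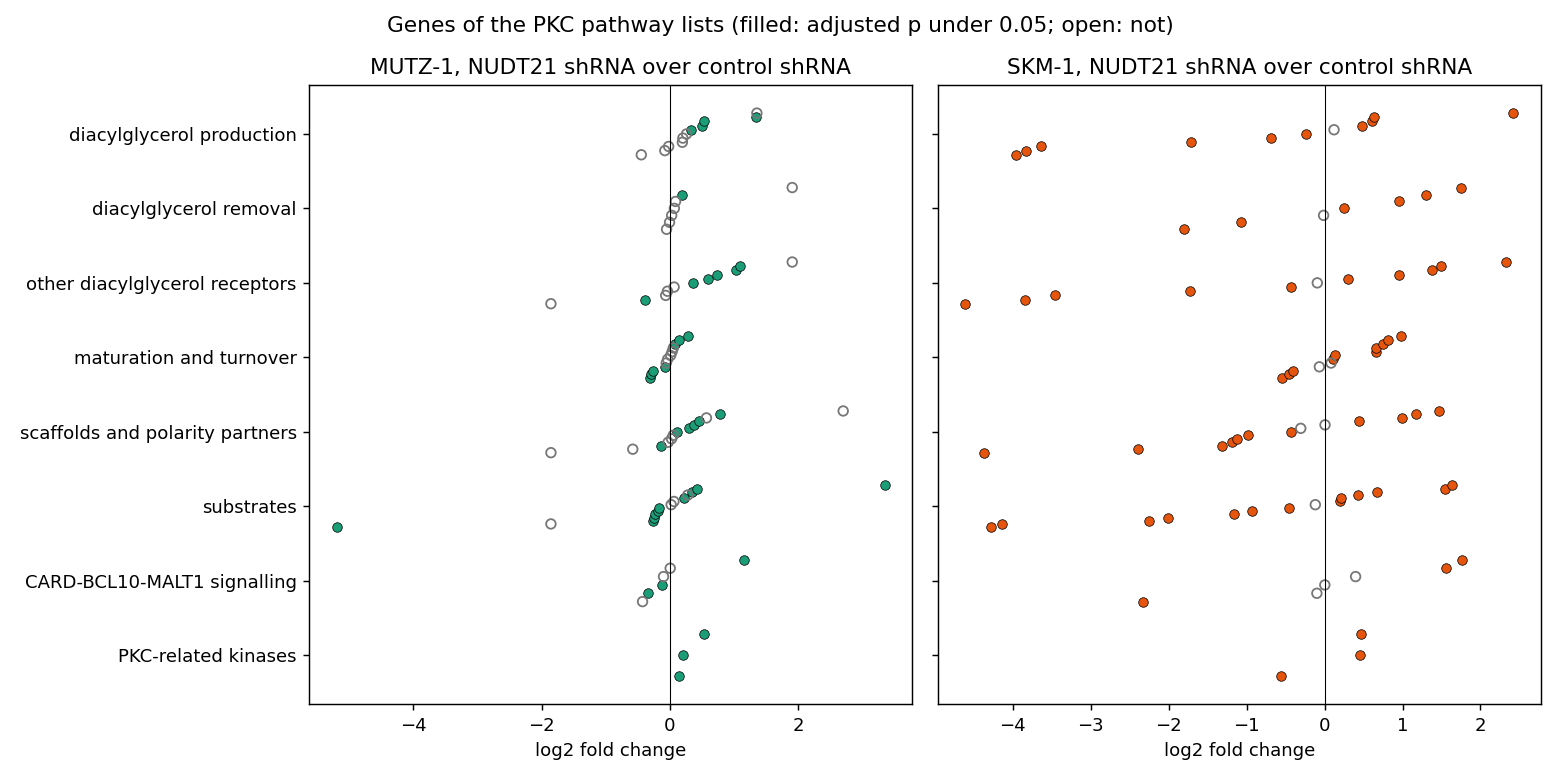
Log2 fold change (horizontal axis) of each tested gene of the 8 PKC pathway lists in MUTZ-1 on the left and SKM-1 on the right, filled where the adjusted p was under 0.05. In MUTZ-1 MARCKS lies at -5.19, and in SKM-1 WWC1, CHN2 and GAP43 are among the points below -4.

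Between the control cells, the lines differed in which genes of the pathway they expressed. Of the 77 tested genes, 29 were higher and 41 lower in MUTZ-1, or 90.9%, where 90.2% of all genes tested were called. Higher in MUTZ-1 control than in SKM-1 control cells were PLCG2 (6.32 ± 0.05), RASGRP3 (6.36 ± 0.08), DGKA (2.52 ± 0.09), PARD6A (1.70 ± 0.17) and PHLPP2 (1.04 ± 0.06), each with an adjusted p of 8.40e-18 or less. PLCG2 and RASGRP3 are known from B-cell receptor signalling. All 9 B-lineage markers were at 1 CPM or more in MUTZ-1 control cells and 3 of 9 in SKM-1 control cells. Lower in MUTZ-1 were PKN3 (-3.36 ± 0.07), CARD9 (-2.14 ± 0.17), MLST8 (-0.95 ± 0.04) and DGKE (-0.45 ± 0.08). UNC13B had 0.0775 CPM in MUTZ-1 control and 70.2 CPM in SKM-1 control libraries, and ADD2 0.116 and 86.1 CPM, while PLCB4 and WWC1 were at or near 0 in MUTZ-1.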

How the data were processed

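Polyadenylated RNA of MUTZ-1 and SKM-1 cells was sequenced in 12 libraries with a stranded kit, per the labels' protocols. The deposited table of whole read counts per gene was used as deposited, and the deposited FPKM values of the same libraries served for shares and 2 alternatives. Per the submitters' processing notes, fastp, HISAT2 and HTSeq were used with GRCh38. The sources used here do not give the annotation, the strand setting or the handling of multiply mapped reads, so genes with near-identical copies or an overlapping partner are uncertain.

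Genes were filtered with filterByExpr, which kept 13625 of 17518, scaled with TMM and fitted in edgeR 4.0.16 (R 4.3.3) by robust quasi-likelihood, with 12 libraries in 1 model of group means and 8 residual degrees of freedom. Benjamini-Hochberg adjustment covered all genes tested, and genes under an adjusted p of 0.05 are said to be called, to have risen or to have fallen. Values after ± are the SD of levels (n = 3) or the SE of log2 fold changes. The fit was tested on simulated counts. DESeq2 1.42.0 and limma 3.58.1, on log2(FPKM + 1) and log2(FPKM + 0.1), were alternatives.

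The PKC genes and the pathway and marker lists were chosen with earlier results of these data known. From each pathway list and knockdown comparison, the text names the 2 higher and 2 lower called genes with the largest change among those with at least 5 CPM in the higher group and no overlap, and 1 of each for the control cells. PLCG2, BCL10 and further genes given only as values were added afterwards, and some genes that the rule names are not reported here. Promoter and 3′ UTR letters came from RefSeq (GRCh38.p14) and GENCODE v29.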

Additional observations from a re-analysis of the deposited data

Results flagged for a closer look

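The effect of the knockdown in MUTZ-1 minus that in SKM-1, on the log2 scale and from the fit across all genes, set these genes apart at an adjusted p under 0.05. For the PKC genes, which had been chosen on this contrast, the differences are a description: PRKCA (0.47), PRKCB (-2.19), PRKCD (-0.32), PRKCE (3.52), PRKCH (-1.02), PRKCI (0.99), PRKCQ (-2.07) and PRKCZ (1.74). Positive values were found where the gene was lower after knockdown in SKM-1, and negative ones where it was higher there. NUDT21 itself differed by 0.23, since less of it was left in SKM-1.

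For the named genes of the pathway, the differences were PLCB1 (4.16), PLCB2 (-1.08) and PLCB4 (5.00) for phospholipases C, DGKA (-1.56), DGKD (1.10), DGKH (1.90) and DGKZ (-0.89) for diacylglycerol kinases, and CHN1 (4.87), PRKD3 (1.68), RASGRP1 (0.78) and RASGRP2 (-1.88) for other diacylglycerol receptors. They were HSP90AA1 (-0.97), HSP90AB1 (-1.11), MTOR (-1.05), PHLPP1 (0.60), PHLPP2 (0.74) and TRIM41 (-0.52) for maturation and turnover, PARD3 (1.81), PICK1 (1.51), SQSTM1 (-1.31) and WWC1 (7.06) for scaffolds and polarity partners, and ADD3 (1.14), MARCKS (-2.93) and PEBP1 (0.19) for substrates. They were CARD9 (-2.19) and MALT1 (2.21) for CARD and MALT1 genes and PKN2 (0.70) for PKC-related kinases. PLCB4 and WWC1 had at or near 0 counts in MUTZ-1, so their fitted differences depend on the prior count and are no bound. PLCB1 (0.22 and 0.19 CPM in MUTZ-1 shNUDT21 and control libraries) and PARD3 (0.38 and 0.58 CPM) were also low in MUTZ-1. MARCKS was at 0.18 CPM in MUTZ-1 shNUDT21 libraries. The differences of PLCB1, PARD3 and MARCKS thus rest on few reads as well.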

How the results depend on the processing

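Every PKC gene kept its direction and its call in SKM-1 and between the lines in the alternatives run. These were other scalings, filters, DESeq2, limma on FPKM, fits on the compared groups, the replicate block and each library left out. The genes had been chosen on these contrasts, so their calls are a description and no support. In MUTZ-1, PRKCB (-0.077, adjusted p = 0.0118) lost its call with the size factors of DESeq2 in edgeR (-0.055, adjusted p = 0.0828), with DESeq2 (-0.055, adjusted p = 0.105), with library totals alone (-0.029, adjusted p = 0.388), on log2(FPKM + 1) (-0.028, adjusted p = 0.443) and on log2(FPKM + 0.1) (-0.029, adjusted p = 0.429), and ranged from -0.077 to -0.034 with 1 library left out. The cause was not tested. The sign turned for PRKCE in MUTZ-1, which was not called, with library totals alone (0.020), on log2(FPKM + 1) (0.011), on log2(FPKM + 0.1) (0.019) and with 1 library left out (-0.042 to 0.021), and for PRKCQ in MUTZ-1 (-0.20 to 0.059 with 1 library left out). The difference of the effects on MARCKS turned to 0.48 on log2(FPKM + 1), where the added 1 shrinks changes at low levels.

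Of the pathway genes, 9 were lower in MUTZ-1 on log2(FPKM + 0.1), beside 14 in edgeR. As shares of summed CPM, not per length, PRKCB held 37.2% in MUTZ-1 shNUDT21, 42.0% in MUTZ-1 control, 70.9% in SKM-1 shNUDT21 and 33.6% in SKM-1 control libraries. With library totals alone, the median over all genes was 0.17 in place of 0.04 for the difference of effects and -0.24 in place of -0.11 between control lines. Same-numbered libraries did not deviate together (correlations -0.06 to 0.03), so no pairing by number was seen. Correlations near 0 cannot exclude a shared culture or preparation. With the replicate block, 25 and 14 pathway genes were higher and lower in MUTZ-1 and 34 and 32 in SKM-1, beside 26 and 14, and 34 and 32.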
